A study of Mus musculus with 6 samples.

Results

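The 8 genes described here act in the making, storage and breakdown of small transmitters and in the dense granules that hold them. They were chosen by name from a table of 24110 genes, and the choice rested on this same comparison, because Chga and Gch1 were higher and Slc18a2 and Ache lower in the knockout. Members Chga, Gch1, Ddc, Hdc, Tph1, Slc18a2, Maoa and Ache are therefore described with their values, and their differences between genotypes are not tested results. The study measured RNA of mouse hematopoietic stem cells from C57BL/6 bone marrow, sorted as negative for lineage markers and CD48 and positive for Sca-1 and CD150. The Prmt5 fl/fl group carried floxed alleles of Prmt5, which encodes an arginine methyltransferase that places symmetric dimethylarginine on proteins, splicing factors among them. In the Prmt5 KO group these alleles had been deleted, and cells of both groups were taken 7 days after induction. Each group had 3 libraries, each from the pooled marrow of 2 mice matched for litter and sex. The labels name neither the Cre driver nor the inducing agent, so the cells in which deletion took place cannot be stated.

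Serotonin, dopamine and histamine are made by short enzyme chains that end in an amino acid decarboxylase, and noradrenaline is made from dopamine by a further step. The hydroxylases for serotonin and the catecholamines need the cofactor tetrahydrobiopterin, whose first and rate-limiting step is run by GTP cyclohydrolase. A proton pump acidifies the granule, and the vesicular transporter uses that gradient to load the amine, while granins such as chromogranin A condense the granule's content. In blood these steps are best known from mast cells, basophils and platelets. Platelets take up serotonin from plasma and store it in dense granules. Acetylcholinesterase, the enzyme that splits acetylcholine, is also made by mouse megakaryocytes and red cell precursors.

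Total reads in genes were between 37834096 and 44704636 per library. Values are read counts scaled by the submitters to the total of Prmt5 fl/fl replicate 2, called scaled counts below, and levels between genes are given as RPKM, reads per kilobase of gene length scaled to library depth. The targeted gene Prmt5 stood at 6076, 6024 and 6010 scaled counts in the fl/fl libraries and at 1056, 1049 and 897 in those of KO. Its log2 fold change was -2.60 (SE 0.13, limma adjusted p = 6.18e-04; 0.0618 with the replicate number as a block). All 10 marker genes of the stem cell list were present and none passed the threshold, with summed scaled counts of 100697 to 146501 in fl/fl and 101470 to 118822 in KO. Cd48, which the sort leaves out, was present at 446 to 757 scaled counts. Prmt5 fl/fl replicate 3 lay farthest from the other libraries (chi-square over its degrees of freedom between 210 and 376 in its pairs), and KO replicate 3 was next (125 to 376), while the pairs that held neither ranged from 27.3 to 95.2. Folds of the members without each of these libraries are therefore given below.

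The stretches before the RefSeq starts of Chga, Gch1, Slc18a2 and Ache are shown because these 4 members moved, a pair of them in each direction. They come from RefSeq on build GRCm38.p6, which held a promoter for 8 of 8 members. Each window runs from 250 bases before the RefSeq start to 20 bases after it. Capitals mark GGGCGG (the core of a GC box), TGACGT (the core of a cAMP response element), TATAAA (a core promoter element) and GATAA (the core bound by GATA factors), on either strand. The Chga window is chr12:102554691-102554960 on the plus strand, the Gch1 window is chr14:47189394-47189663 on the minus strand and the Slc18a2 window is chr19:59260628-59260897 on the plus strand. For Ache the printed 216 bases are chr5:137288058-137288273 on the plus strand, since the first 54 bases of its window lie in exons of other Ache transcripts. The GENCODE start of Ache, at 137287519, lies before this whole stretch, which is therefore inside the gene as GENCODE draws it.
Chga: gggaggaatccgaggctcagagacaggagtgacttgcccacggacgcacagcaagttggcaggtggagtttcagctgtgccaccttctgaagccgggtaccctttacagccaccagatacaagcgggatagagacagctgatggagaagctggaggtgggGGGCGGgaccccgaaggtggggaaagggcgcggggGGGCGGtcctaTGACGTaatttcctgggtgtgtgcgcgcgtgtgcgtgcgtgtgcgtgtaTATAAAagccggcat
Gch1: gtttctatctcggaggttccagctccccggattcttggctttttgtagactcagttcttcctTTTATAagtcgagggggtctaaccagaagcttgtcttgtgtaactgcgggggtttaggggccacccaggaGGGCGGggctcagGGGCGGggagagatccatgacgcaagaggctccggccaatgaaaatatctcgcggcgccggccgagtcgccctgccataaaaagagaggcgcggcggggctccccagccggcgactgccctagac
Slc18a2: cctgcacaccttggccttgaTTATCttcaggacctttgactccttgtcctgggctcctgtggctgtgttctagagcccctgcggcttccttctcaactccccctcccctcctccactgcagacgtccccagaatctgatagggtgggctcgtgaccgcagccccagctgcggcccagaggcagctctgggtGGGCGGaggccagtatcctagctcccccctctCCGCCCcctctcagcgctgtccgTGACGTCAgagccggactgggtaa
Ache: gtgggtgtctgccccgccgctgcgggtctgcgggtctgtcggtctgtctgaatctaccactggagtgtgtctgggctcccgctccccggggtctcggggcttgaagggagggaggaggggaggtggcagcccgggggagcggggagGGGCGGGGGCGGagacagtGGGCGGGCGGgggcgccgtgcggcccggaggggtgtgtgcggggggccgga

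All 4 windows held GGGCGG, with 2 matches each in Chga, Gch1 and Slc18a2 and 4 in Ache. The GGGCGG matches of Ache lay between 50 and 22 bases before the RefSeq start. Among 32851 mouse promoter windows of the same length, 34.1% held this motif. The Chga window held TGACGT between 44 and 39 bases before the start, and in Slc18a2 the motif was present on both strands as an overlapping pair across the start. Of all windows 7.11% held TGACGT, and neither Gch1 nor Ache had it. TATAAA lay 6 to 11 bases after the RefSeq start of Chga, which is 23 to 18 bases before the GENCODE start of the gene. In Gch1 it stood on the other strand 188 to 183 bases before the start, and 12.9% of all windows held it. GATAA was present once, on the other strand of Slc18a2, against 23.8% of all windows. Also searched on both strands were CACCC (54.3% of all windows), CANNTG (68.9%), TGANTCA (7.23%) and GCGTGGGCG (0.572%). Of these CACCC was in all 4 windows, CANNTG in those of Chga, Slc18a2 and Ache (there 199 to 194 bases before the start, across the start of the printed part), and the other two in none. The windows were 60.7% (Chga), 60% (Gch1), 63.7% (Slc18a2) and 74.1% (Ache) G and C, against a median of 52.6% over all windows. These matches describe letters only, and whether any factor bound there was not measured.

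Of the 8 members, 7 had a mean of at least 10 scaled counts and entered the fit over 14113 genes, and Tph1 did not. At a limma adjusted p under 0.05, 2 of the 7 were higher (Chga and Gch1), beside 0.276% of all genes tested. Another 2 were lower (Slc18a2 and Ache), beside 0.453% of all genes. The groups of libraries did not overlap for 3 members on the higher side, Maoa being the third, and for 2 on the lower side. Over all genes these shares were 8.3% and 19.9%. The members were selected on this contrast, so nothing is read from these counts. With the replicate number as a block all 4 calls ended (limma adjusted p = 0.161 for Chga and 0.197 for Gch1, Slc18a2 and Ache). The median log2 fold change of all genes tested was -0.048. In the per-library plot Chga and Gch1 lie above, and Slc18a2 and Ache below, their fl/fl libraries in every KO library.

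**Figure D1:**
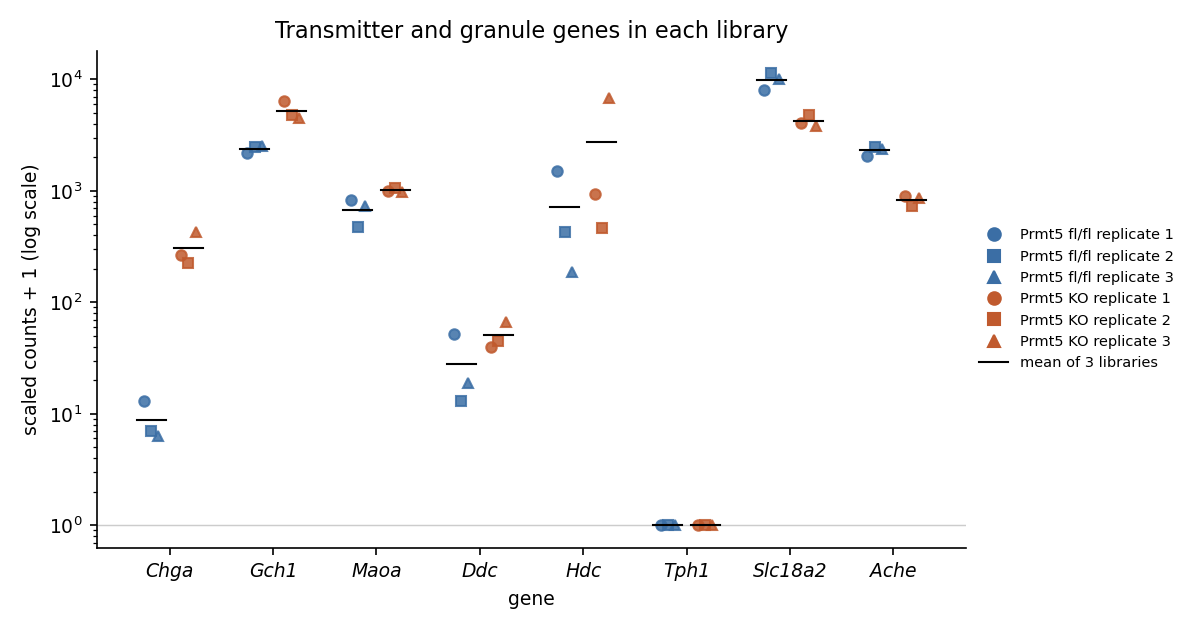
Scaled counts plus 1 of the 8 members, on a log scale, in the 3 Prmt5 fl/fl and 3 Prmt5 KO libraries, with 1 point per library and a line at the mean. In scaled counts Chga sits between 5.3 and 12.1 in fl/fl and between 222 and 428 in KO, Tph1 is at 0 and Hdc spans 187 to 6760 over the libraries.

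Gch1 encodes GTP cyclohydrolase, and the gene spans 47153895 to 47189413 of chromosome 14 (GRCm38, minus strand, up to 6 exons). It stood at 2200, 2456 and 2506 scaled counts in the controls and at 6443, 4775 and 4515 in KO. Every KO library was above every fl/fl library, and KO replicate 1 was the highest. The means were 2387 ± 164 and 5244 ± 1046 (SD, n = 3), a ratio of 2.20 and a log2 fold change of 1.12 (SE 0.17). Taken by replicate number, the log2 differences of KO from fl/fl were 1.55, 0.96 and 0.85. Without fl/fl replicate 3 the log2 fold change was 1.16, and without KO replicate 3 it was 1.22.

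None of the other enzymes of the cofactor passed the threshold. All 7 genes of the list for tetrahydrobiopterin synthesis, recycling and feedback were tested and 0 passed the threshold, while 3 were lower and 0 higher at an unadjusted p under 0.05, where 13.6% of all genes were lower and 4.58% higher. Their median log2 fold change was -0.43, with 6 of 7 below 0. Pts, the enzyme of the next step after Gch1, had the smallest p of the list, with 4972, 5439 and 7807 scaled counts in fl/fl and 2917, 3461 and 2840 in KO. Every KO library lay below every fl/fl library. Its log2 fold change was -0.96 (SE 0.19, limma adjusted p = 0.0695; 0.208 with the replicate block). It passed in DESeq2 (adjusted p = 0.00214) and in limma without fl/fl replicate 3 (adjusted p = 0.0311). The next 4 genes were chosen after their values were seen. Pcbd2, a cofactor dehydratase, was at -0.71 on the log2 scale (adjusted p = 0.113 in limma, 0.0382 in DESeq2 and 0.274 with the replicate block). Gchfr, the protein through which the cofactor inhibits Gch1, had -0.73 (limma adjusted p = 0.281). Qdpr, which recycles the cofactor, had -0.43 (limma adjusted p = 0.203). Spr, which completes the synthesis, was near 0 at -0.04 (0.022 in edgeR and 0.045 in DESeq2, so its sign depends on the scaling), with 40.6 RPKM in fl/fl and 39.5 in KO.

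The hydroxylases of serotonin and catecholamine synthesis in the lists were at or near 0 reads. Tph1, the tryptophan hydroxylase of cells outside the brain (chromosome 7, 46644641 to 46672537), had 0 reads in all 6 libraries, which allows up to 3 reads in each. Tph2, the hydroxylase of the brain, was also at 0 in all 6 libraries, as were Dbh and Pnmt, which act later in catecholamine synthesis and do not use the cofactor. Th, the tyrosine hydroxylase, had 1 read in KO replicate 3. A value of 0 in this table is not always a lack of RNA, since Atp6v0c, a proton pump subunit that most cells make, had at most 4 scaled counts in any library.

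Ddc decarboxylates both hydroxylated precursors to serotonin and dopamine (chromosome 11, 11814101 to 11898144, minus strand, up to 15 exons). It had 50.6, 12 and 18 scaled counts in fl/fl and 39.0, 43.8 and 66.2 in KO. The groups overlapped, because fl/fl replicate 1 was above a pair of the KO libraries. The means were 26.9 ± 20.8 and 49.7 ± 14.5 (SD, n = 3), and the log2 fold change of 1.08 (SE 0.59) was not past the threshold. Single libraries moved it from 0.66, without fl/fl replicate 2, to 1.65, without fl/fl replicate 1, and it was 0.93 and 0.86 without replicate 3 of fl/fl and of KO.

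Hdc, the enzyme that makes histamine from histidine (chromosome 2, 126593667 to 126619299, minus strand, up to 12 exons), varied most between libraries of one group. It had 1518, 425 and 187 scaled counts in fl/fl and 928, 462 and 6760 in KO, a span of 36.1-fold. KO replicate 3 was the highest, and the other KO libraries lay within the fl/fl range. The means were 710 ± 710 and 2717 ± 3510 (SD, n = 3), and the log2 fold change was 1.53 (SE 1.07), not past the threshold, and 0.40 without KO replicate 3. Dropping fl/fl replicate 1, the highest control, gave 2.33, dropping fl/fl replicate 3, the lowest, gave 0.83, and dropping KO replicate 2 gave 2.34.

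Part of the granulocyte markers had the same order of libraries as Hdc. The summed scaled counts of the 8 granulocyte markers were 201501, 64545 and 27230 in fl/fl and 82877, 58018 and 664937 in KO, and all 8 were tested with 0 past the threshold. Camp, an antimicrobial granule protein, had 14649, 5727 and 663 in fl/fl and 6880, 6503 and 97711 in KO. The order of the 6 libraries was the same for Hdc as for Camp, S100a8 and S100a9, from KO replicate 3 down to fl/fl replicate 3. The other granulocyte genes included Ltf, also highest in KO replicate 3, and the early granule proteases and peroxidase Mpo, Elane, Ctsg and Prtn3, which were highest in a fl/fl library and had log2 fold changes of -1.20 to -0.82. The summed marker list of macrophages and monocytes also peaked in KO replicate 3, at 156070 scaled counts against 23730 to 51864 in the others. Of its 8 genes 7 were tested and 0 passed the threshold. Of these 7, 6 had log2 fold changes below 0 and 1, Lyz2, was above 0 at 0.36, with a median of -0.45. Mast cell and basophil markers had sums of 31036, 25686 and 17316 in fl/fl and 20008, 19622 and 17492 in KO, of which Gata2, also a stem cell gene, made up 15553 to 24709 per library. In that list 7 of 10 genes were tested, 0 passed, and the mast cell tryptases Tpsb2 and Tpsab1 were at 0 in all libraries. The mast cell chymase Cma1 had 26 reads in KO replicate 3 and 0 elsewhere. Basophil protease Mcpt8 was highest in fl/fl replicate 1 at 2225, against 539 in KO replicate 3. Of 8 lymphocyte markers 7 were tested and 0 passed. The part of other cells in the Hdc values was not tested.

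**Figure D2:**
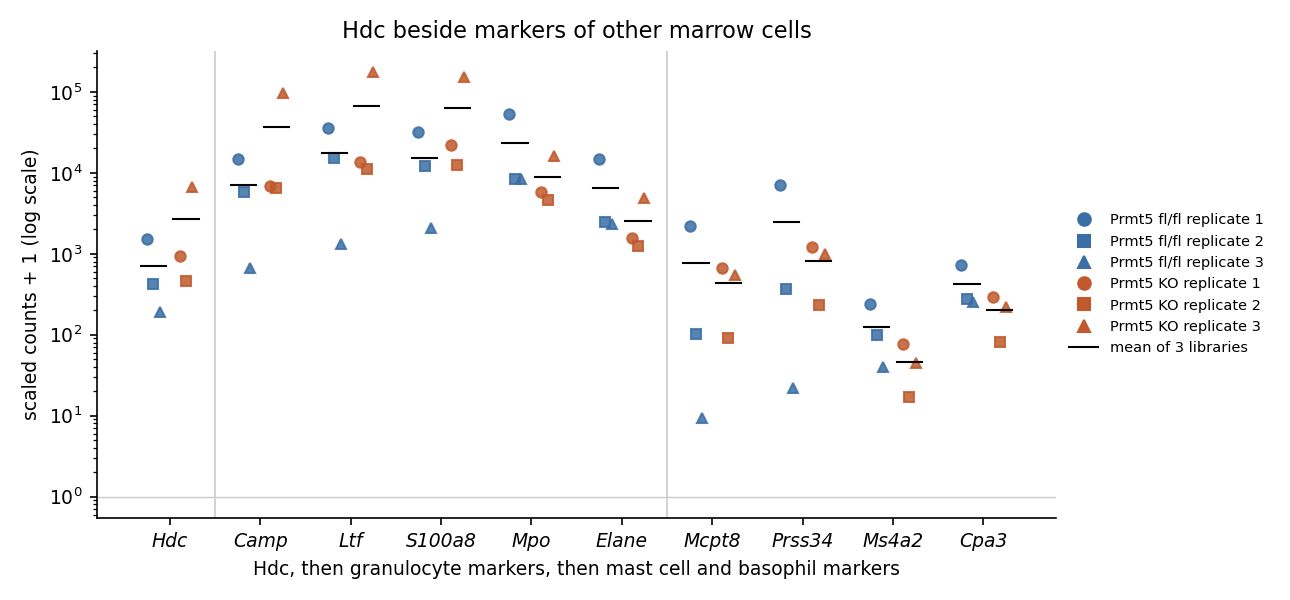
Scaled counts plus 1 of Hdc and of marker genes of granulocytes and of mast cells and basophils, on a log scale, with 1 point per library and a line at the mean of 3. Hdc, Camp, Ltf and S100a8 are highest in KO replicate 3 and lowest in fl/fl replicate 3, while Mpo, Elane and the 4 mast cell and basophil genes are highest in fl/fl replicate 1.

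Slc18a2 encodes the vesicular monoamine transporter, which loads serotonin, histamine and catecholamines into granules. The gene lies on the plus strand of chromosome 19 from 59260896 to 59296012, with up to 16 exons. It had 7993, 11311 and 9984 scaled counts in fl/fl and 4020, 4826 and 3808 in KO. All KO libraries were below all fl/fl libraries. The means were 9763 ± 1670 and 4218 ± 537 (SD, n = 3), a level 2.31 times as high in fl/fl, and the log2 fold change was -1.20 (SE 0.17). Leaving out replicate 3 of fl/fl gave -1.18, and leaving out that of KO gave -1.13. Of its exon bases, 111 (2.12%) are shared with the antisense gene Gm29261, and without strand information reads there cannot be told apart.

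Ache encodes acetylcholinesterase and spans 137287519 to 137294466 of chromosome 5 on the plus strand, with up to 5 exons. It had 2030, 2485 and 2385 scaled counts in fl/fl and 905, 727 and 853 in KO. The groups were far apart, the highest KO library lying below the lowest fl/fl library. The means were 2300 ± 239 and 828 ± 91.5 (SD, n = 3), a level 2.78 times as high in fl/fl, with a log2 fold change of -1.47 (SE 0.16). With fl/fl replicate 3 left out it was -1.44, and -1.50 with KO replicate 3 left out. Of the exon bases of Ache, 98 (2.12%) overlap the opposite-strand gene Gm42456. In bulk samples like these, fewer cells of a type and less RNA per cell cannot be told apart.

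Markers of megakaryocytes and of red cell precursors, which also make Ache, were lower in part. Of 12 megakaryocyte and platelet markers 12 were tested, 0 were higher and 1 was lower, Itga2b, the fibrinogen receptor subunit, at 22127, 30328 and 20679 scaled counts in fl/fl and 7124, 6866 and 4926 in KO (log2 fold change -1.95, limma adjusted p = 0.0195; 0.103 with the replicate block). Of these 12 markers 8 were below 0. DESeq2 called 4 lower and 1 higher, beside 4.36% and 2.59% of all genes, and the replicate block called 0. With Itga2b those lower in DESeq2 were Treml1 at -2.08 (DESeq2 adjusted p = 2.63e-05), Gp5 at -1.27 (2.01e-04) and Gp1bb at -1.28 (0.00955). The remaining 4 were above 0, among them Selp at 0.82 (adjusted p = 0.130 in limma and 0.0103 in DESeq2) and Nbeal2 at 1.27 (limma adjusted p = 0.347). For Selp and Nbeal2 all KO libraries were above all fl/fl libraries. The list's sums were 80466 to 93726 in fl/fl and 45431 to 77214 in KO. Of 10 red cell markers 6 were tested and 1 was lower, the transcription factor Klf1, at a log2 difference of -2.11 (adjusted p = 0.0476 in limma, 0.0653 in edgeR and 0.161 with the replicate block). Its values were 2089, 872 and 1376 in fl/fl and 393, 253 and 311 in KO. That list's sums were 3199 to 7695 and 2108 to 2509, and its 4 globin genes are listed at 0 in every library. Of the mast cell and basophil markers given beside Hdc, 5 of the 7 tested were below 0 and 2 above, with 0 past the threshold. Their median log2 fold change was -0.61, against -0.048 for all genes. The part of any of these cells in the fall of Slc18a2 and Ache was not tested.

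Chga encodes chromogranin A, the granin that gives dense granules of endocrine and nerve cells their core (chromosome 12, 102554969 to 102565028, plus strand, up to 8 exons). It had 12.1, 6.0 and 5.3 scaled counts in fl/fl, from 12, 6 and 5 reads, and 262, 222 and 428 in KO, from 222, 208 and 362 reads. The lowest KO library was far above the highest fl/fl library, and KO replicate 3 was the highest. The means were 7.81 ± 3.77 and 304 ± 109 (SD, n = 3), a ratio of 38.9. The log2 fold change on the scale of log2(value + 1) was 5.14 (SE 0.45), a scale that understates the change of a gene this low. By replicate number the log2 differences were 4.32, 5.0 and 6.09. Dropping fl/fl replicate 3 gave a log2 fold change of 4.93, and dropping that of KO gave 4.86.

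The other granins were at or near 0 reads in both groups. Of the 10 genes in the list of granins and prohormone processing, Scg2, Scg5, Pcsk1 and Pcsk2 were at 0 in all libraries, and Chgb, the second chromogranin, had 1 read in fl/fl replicate 3. Only 3 genes were tested and 0 passed. Vgf, a granin-like protein, had the smallest p, with 11.1, 24 and 7.4 scaled counts in fl/fl and 0, 5.3 and 22.4 in KO (log2 fold change -1.37, limma adjusted p = 0.569). Pam, which amidates peptides in granules, had 714 ± 105 scaled counts in fl/fl and 748 ± 92.2 in KO (SD, n = 3). Markers of neurons and neuroendocrine cells had sums of 465, 502 and 621 in fl/fl and 308, 310 and 435 in KO. Of these 10 genes 4 were tested and 0 passed, and Insm1 reached at most 6.4 scaled counts.

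Maoa encodes monoamine oxidase A, which breaks down serotonin and noradrenaline at the outer mitochondrial membrane (chromosome X, 16619698 to 16687818, plus strand, up to 15 exons). It had 828, 468 and 731 scaled counts in fl/fl and 990, 1061 and 978 in KO. All KO libraries were above all fl/fl libraries, and the KO libraries were close together. The means were 676 ± 186 and 1010 ± 44.6 (SD, n = 3), and the log2 fold change of 0.62 (SE 0.23) was not past the threshold. It was 0.38 without fl/fl replicate 2, the lowest control, and 0.70 and 0.64 with replicate 3 of fl/fl or of KO left out.

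Of the 8 genes listed with the other breakdown enzymes, Aanat and Asmt of melatonin synthesis among them, 5 were tested and 0 passed. Sult1a1, a sulfotransferase, had the smallest p of this list, -0.95 on the log2 scale (limma adjusted p = 0.180), and shares 61 exon bases with Sgf29 on the other strand. Aldh2, which clears the aldehydes that monoamine oxidase makes, had 313 RPKM in fl/fl and 335 in KO. Maob, the sister enzyme of Maoa, had at most 27.5 scaled counts in any library.

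Per gene length, Slc18a2 was the highest member in fl/fl at 57.4 ± 9.82 RPKM (SD, n = 3), followed by Ache at 23.3 ± 2.42 and Gch1 at 19.3 ± 1.32. Hdc at 6.62 ± 6.62 and Maoa at 3.63 ± 1.00 came next, and their libraries overlapped. Ddc at 0.288 ± 0.222 and Chga at 0.093 ± 0.045 also overlapped, and Tph1 was at 0. The order was different in KO, where Gch1 stood at 42.4 ± 8.47 RPKM, Hdc at 25.3 ± 32.7 and Slc18a2 at 24.8 ± 3.16, with Hdc overlapping both of the others and also Ache, Maoa and Chga. Ache at 8.38 ± 0.93, Maoa at 5.43 ± 0.24, Chga at 3.61 ± 1.29 and Ddc at 0.532 ± 0.155 followed in that order without overlap between neighbours. Chga passed Ddc but remained below Maoa in level.

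**Figure D3:**
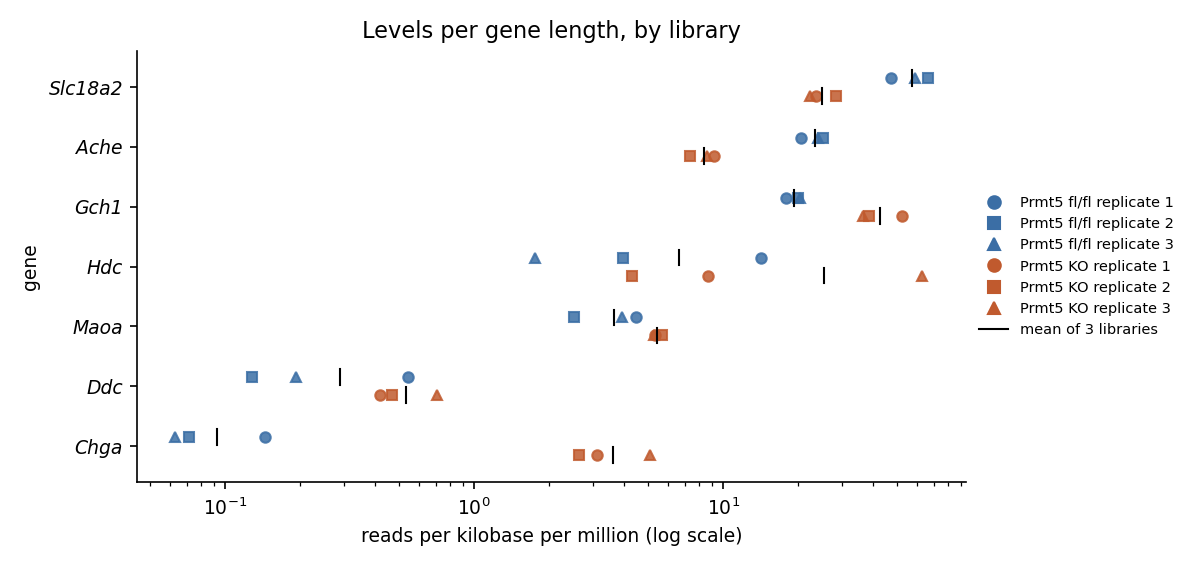
Level per gene length of the 7 members with any reads, in RPKM on a log scale, with 1 point per library and a line at the mean of 3. Slc18a2 leads in fl/fl at a mean of 57.4, and Gch1 has the highest mean in KO at 42.4.

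The wider pathway was read from 12 lists of partner genes. Of their 128 genes, 127 were in the table, 36 had 0 reads in all libraries and 65 were tested. At the limma threshold 0 were higher and 1 was lower. At an unadjusted p under 0.05, 0 were higher and 9 lower, and DESeq2 called 0 higher and 4 lower (edgeR called 0). Over all genes the shares were 4.58% higher and 13.6% lower at that unadjusted p, 2.59% and 4.36% in DESeq2, and 0.241% and 0.184% in edgeR, so the 9 lower of 65 are near the background. The median log2 fold change was -0.11, against -0.048 for all genes.

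The partner gene past the threshold was Rab27b, a small GTPase that docks granules at the plasma membrane and acts in platelet dense granules. It had 3758, 3809 and 4296 scaled counts in fl/fl and 2393, 1952 and 1963 in KO. All KO libraries were below all fl/fl libraries. The log2 fold change was -0.91 (SE 0.14, limma adjusted p = 0.0475). Adjusted p was 0.0653 in edgeR, 1.02e-04 in DESeq2 and 0.197 with the replicate block, and the limma call was lost without each library in turn except fl/fl replicate 3. Of the 12 genes of granule release, all tested, 4 were lower at an unadjusted p under 0.05, beside 13.6% of all genes, namely Rab27b and its docking partners or priming factors Sytl4, Stxbp2 and Unc13d. Their log2 fold changes were -0.68 (Sytl4), -0.43 (Stxbp2) and -0.47 (Unc13d), none past the adjusted threshold, and Unc13d alone of these 3 passed without fl/fl replicate 3 (limma adjusted p = 0.0494). The related GTPase Rab27a had a log2 fold change of 0.14.

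Other steps of storage and uptake gave no call. Of 15 subunits of the granule proton pump 14 were tested and 0 passed, with a median log2 fold change of -0.13. Atp6ap1, an accessory subunit, had the smallest p at -0.29 on the log2 scale (limma adjusted p = 0.296). Of 11 genes in the list of monoamine transporters, which also holds amino acid carriers, 10 were tested and 0 passed. Slc7a8, an amino acid carrier, had -0.40 (limma adjusted p = 0.316). Slc6a4, the serotonin uptake transporter of platelets, ranged from 4.7 to 119 scaled counts without separation by genotype. Slc22a3, a low-affinity amine carrier, had 36.7 RPKM in fl/fl and 34.1 in KO.

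For acetylcholine, reads were found for the enzyme that splits it, while the genes that make and load it are listed at 0. Chat, which makes acetylcholine, its vesicular transporter Slc18a3, the high-affinity choline transporter Slc5a7 and the membrane anchor Prima1 were at 0 in all 6 libraries. Bche, the related esterase, had 1.2 scaled counts in KO replicate 3 and 0 elsewhere. The choline carrier Slc44a2 was at 0.10 on the log2 scale (limma adjusted p = 0.738). Of 21 acetylcholine receptor genes 7 were at 0 and 5 were tested, with 0 past the threshold. Chrnb1, a nicotinic subunit, had 1159, 1119 and 1182 scaled counts in fl/fl and 481, 795 and 530 in KO. The groups did not overlap, and the log2 fold change was -0.97 (adjusted p = 0.0846 in limma, 0.00859 in DESeq2 and 0.217 with the replicate block).

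Receptors for the amines were mostly low. Among 4 histamine receptors 2 were tested and 0 passed, and Hrh2, the most abundant, was at 0.30 on the log2 scale (limma adjusted p = 0.590), with 2.68 RPKM in fl/fl and 3.41 in KO. Of 13 serotonin receptors 8 were at 0 and 3 were tested, with 0 past the threshold and Htr7 at 0.26 (limma adjusted p = 0.820). Of 14 adrenergic and dopamine receptors 2 were tested and 0 passed. Adra2a was near the lower limit, between 0 and 18.9 scaled counts, with a log2 difference of 0.64 (limma adjusted p = 0.817).

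**Figure D4:**
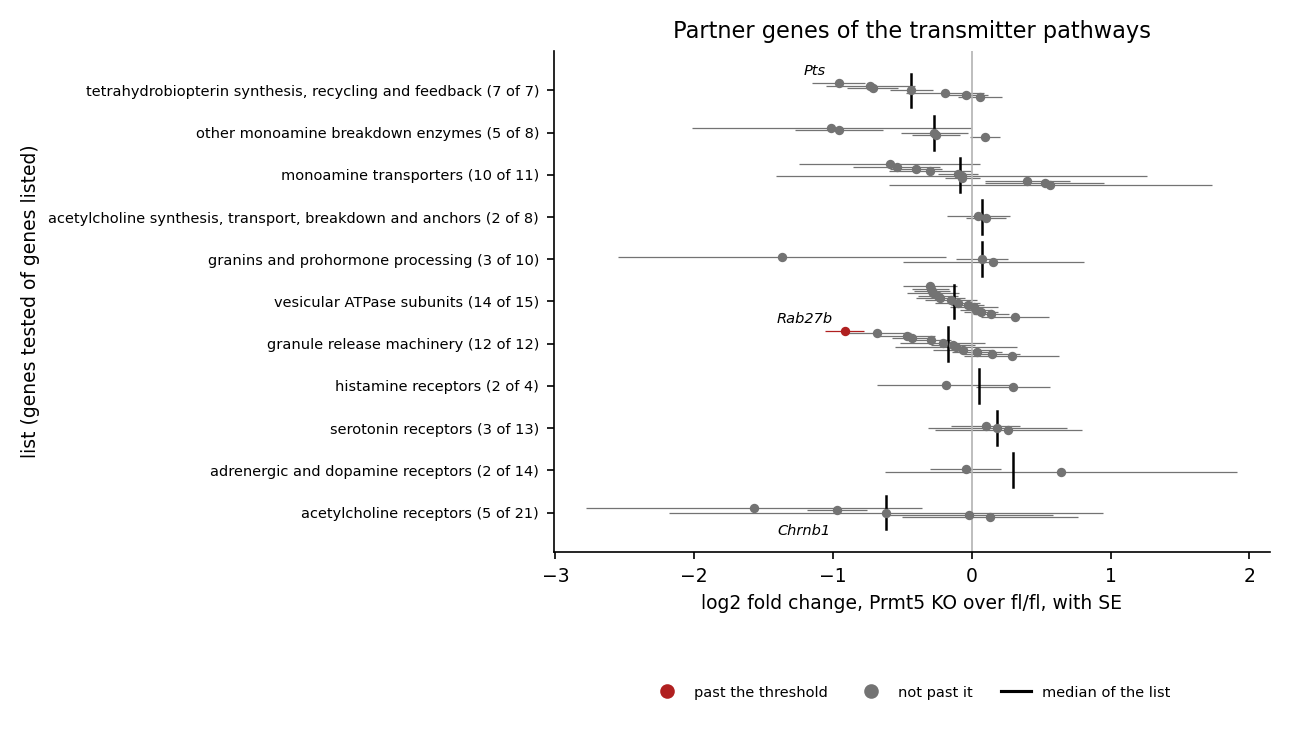
Log2 fold changes (KO over fl/fl) of the 65 tested partner genes by list, with their standard errors and a bar at each list's median. Rab27b at -0.91 is the gene past the threshold, and the tetrahydrobiopterin list has its median at -0.43.

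Genes whose log2 values followed each moved member most closely were taken from 6831 more abundant genes, by Pearson correlation over the 6 libraries. The libraries share their genotype groups, which these values also describe, and they carry no test. For Chga they were Selo (r = 0.996), Prpf3 (0.996) and Lpcat4 (0.995), with log2 fold changes of 0.42, 0.72 and 0.53. For Gch1 they were Srsf11 (0.996), Ubox5 (0.994) and Clpb (0.986), at 0.31, 0.38 and 0.43. Slc18a2 was most like Nom1 (0.999), Hps1 (0.997) and C87436 (0.997), at -0.29, -0.27 and -0.51. Ache was most like Mdm1 (0.996), Sh2d5 (0.994) and Mfsd2b (0.991), at -0.83, -0.64 and -2.42. Mfsd2b, which carries sphingosine-1-phosphate out of blood cells, had 6662, 8976 and 8037 scaled counts in fl/fl and 1600, 1467 and 1324 in KO, so of these 12 genes it alone changed more than the member it was matched to.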

How the data were processed

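RNA of sorted stem cells was amplified with SMART-Seq v4 and made into Nextera XT libraries, which carry no strand, per the labels' protocols. Reads were aligned with STAR and counted with featureCounts on mm10, per the submitters' processing notes; tool versions and the annotation used: not given in the sources used here. A single deposited table holds 24110 genes with their lengths. Its column for Prmt5 fl/fl replicate 2 holds whole read counts. The deposited signal of the other 5 libraries is a count multiplied by 44704636 and divided by that library's total. Undoing this gave whole reads for 100% of values (tolerance 1e-06), 37834096 to 44704636 reads per library. The 1 row naming no gene, the totals, was left out.

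Log2(value + 1) was fitted with limma 3.58.1 (trend, R 4.3.3) over the 14113 genes with a mean of at least 10, two-sided, with Benjamini-Hochberg adjustment over all of them and a threshold of 0.05. Alternatives were other pseudocounts, filters and scalings, edgeR 4.0.16 (quasi-likelihood, TMM) and DESeq2 1.42.0 on the recovered reads, the replicate block and each library left out. Scripts were tested on simulated data. Members and gene lists were chosen with earlier results of these data known. Named genes are the members, in each partner list every gene past the threshold or otherwise the one of smallest p, the 3 genes most correlated with each moved member, and Prmt5; others were chosen after their values were seen. Same-numbered libraries of the 2 groups share a title prefix, and the labels do not say what it marks. The samples are matched by litter. The shared replicate number was taken as pairing in the block fit only, and the main fits did not use it. The deviations of same-numbered libraries correlated at -0.14, 0.0675 and -0.256. With the block limma called 1 gene higher and 0 lower of all genes. No identical libraries were found. Figures were drawn with matplotlib 3.10.9 under Python 3.11.15. A count of 0 was taken to allow up to 3 reads, for counting error only. The values of some listed genes are not reported here.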

Additional observations from a re-analysis of the deposited data

How the results depend on the processing

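The members called numbered 2 higher and 2 lower with other pseudocounts, filters and scalings, in edgeR and in DESeq2. With the replicate block 0 were called in each direction (limma adjusted p = 0.161 for Chga and 0.197 for Gch1, Slc18a2 and Ache). Leaving out 1 library at a time gave 0 to 2 higher and 0 to 2 lower. Chga lost its call without fl/fl replicate 2, KO replicate 1 or KO replicate 3 (limma adjusted p = 0.0527, 0.142 and 0.112), and Gch1, Slc18a2 and Ache without each library except fl/fl replicate 3 (adjusted p up to 0.227). Over the alternatives run, log2 fold changes were 4.11 to 5.47 for Chga, 0.96 to 1.22 for Gch1, -1.34 to -1.09 for Slc18a2 and -1.56 to -1.38 for Ache. These members were chosen for their directions, and their groups of libraries did not overlap. Leaving out a library could therefore not turn a sign, and nothing is read from the directions being kept. Partner genes called lower were 1, and 0 with median-of-ratios scaling, quantile normalization, edgeR and the replicate block, 4 in DESeq2 and 0 to 3 without 1 library; those called higher were 0 throughout. Marker genes called lower were 2, and 1 without a filter, with median-of-ratios scaling, quantile normalization and edgeR, 7 in DESeq2, 0 with the replicate block and 0 to 6 without 1 library. Marker genes called higher were 0, 3 in DESeq2 and 0 to 1 without 1 library. Among the genes named by rule the sign turned for Slc44a2 (-0.024 without fl/fl replicate 3; -0.024 to 0.192 over the libraries left out), Htr7 (-0.23 without fl/fl replicate 2; -0.23 to 0.80) and Adra2a (-0.66 without fl/fl replicate 2; -0.66 to 1.39). Over all genes limma called 39 higher and 64 lower, median-of-ratios scaling 35 and 22, quantile normalization 38 and 26, edgeR 34 and 26, DESeq2 365 and 616, no filter 34 and 38, and the replicate block 1 and 0; leaving out 1 library gave 1 to 120 higher and 2 to 257 lower. Ddc, Vgf and Adra2a have no value where their mean missed the filter, nor Vgf and Adra2a in DESeq2. The cause of these differences was not tested. Depth limits Chga in fl/fl, at 5 to 12 reads per library, and gives no reading of Tph1, Th, Chat or the granins at 0.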
